A study of Mus musculus with 6 samples.

Results

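The cells described here were invariant natural killer T (iNKT) cells with RNA of several genes linked to NF-kB, called NF-kB-marker cells below. A cell was chosen when it held at least 1 unique molecular identifier (UMI) of at least 3 of 7 markers (Irf8, Bcl3, Tnfrsf9, Icam1, Bcl2l11, Serpina3f and Serpina3g) and none of Ifit1, Rsad2, Cd74 or Top2a. Of 16532 cells kept from 6 libraries, 267 met this rule. Of these, 239 came from liver, 19 from spleen and 9 from lymph node. The markers were chosen on these same cells, so their own levels are given as a description, with no test.

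All groups were C57BL/6 mice of genotype WT and 5 weeks of age, and by their labels the groups differed in the organ, liver, spleen or lymph node, with 2 libraries each. In their RNA the lymph node libraries also differed from the others in the sex of the mice. In every group CD8 and B220 positive cells were removed, and the cells that stained for both TCR-β and a CD1d tetramer were sorted and profiled as 10x Genomics single-cell RNA. The methods of the study call the 2 libraries of an organ biological repeats and do not give the number of mice behind each. The labels name the molecule as nuclear RNA.

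NF-kB is a family of transcription factors made of pairs of Nfkb1, Nfkb2, Rela, Relb and Rel subunits. In a resting T cell, IkB proteins such as Nfkbia hold these pairs in the cytoplasm. Signals from the T cell receptor, CD28 or receptors of the TNF family activate the IkB kinase, IkB is degraded, and the freed pairs enter the nucleus, where the genes they switch on include those for IkB itself and for other brakes of the pathway. iNKT cells recognise lipids on CD1d, the liver is one of their main sites in the mouse, and most liver iNKT cells are of the iNKT1 type, which expresses T-bet and NK cell receptors and makes interferon-γ. RNA counts measure transcripts of these genes, not the location or the activity of the proteins.

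The promoters of 5 NF-kB family genes that rose in NF-kB-marker cells are shown because each holds a match to the NF-kB consensus. Each line covers 300 bases around 1 annotated start of the gene, from RefSeq on GRCm38.p6, written 5′ to 3′ on the strand of the gene. The capitals mark the matches on either strand, joined where they overlap. Nfkbid and Nfkb2 each had 3 such windows, and the consensus was in 1 of those of Nfkbid and in 3 of those of Nfkb2.
Nfkbia promoter, chr12:55492598-55492897, minus strand: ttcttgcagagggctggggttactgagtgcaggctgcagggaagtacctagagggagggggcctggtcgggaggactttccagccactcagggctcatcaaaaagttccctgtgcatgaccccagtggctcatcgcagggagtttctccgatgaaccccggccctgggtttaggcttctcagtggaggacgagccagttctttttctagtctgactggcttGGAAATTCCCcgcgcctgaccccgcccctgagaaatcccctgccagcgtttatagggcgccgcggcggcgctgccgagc
Nfkbie promoter, chr17:45555450-45555749, plus strand: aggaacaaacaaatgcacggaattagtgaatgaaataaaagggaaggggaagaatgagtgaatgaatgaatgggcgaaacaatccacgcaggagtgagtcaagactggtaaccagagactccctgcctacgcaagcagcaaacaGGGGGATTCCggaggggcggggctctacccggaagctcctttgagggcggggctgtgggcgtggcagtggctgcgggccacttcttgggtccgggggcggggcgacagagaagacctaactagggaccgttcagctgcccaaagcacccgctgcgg
Nfkbid promoter, chr7:30422156-30422455, plus strand: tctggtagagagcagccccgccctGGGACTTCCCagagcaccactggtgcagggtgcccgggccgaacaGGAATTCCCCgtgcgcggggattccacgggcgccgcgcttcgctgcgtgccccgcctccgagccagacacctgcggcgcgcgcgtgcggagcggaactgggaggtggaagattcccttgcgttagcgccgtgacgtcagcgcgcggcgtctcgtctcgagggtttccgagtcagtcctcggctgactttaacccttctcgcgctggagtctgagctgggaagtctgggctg
Nfkb2 promoter, chr19:46304487-46304786, plus strand: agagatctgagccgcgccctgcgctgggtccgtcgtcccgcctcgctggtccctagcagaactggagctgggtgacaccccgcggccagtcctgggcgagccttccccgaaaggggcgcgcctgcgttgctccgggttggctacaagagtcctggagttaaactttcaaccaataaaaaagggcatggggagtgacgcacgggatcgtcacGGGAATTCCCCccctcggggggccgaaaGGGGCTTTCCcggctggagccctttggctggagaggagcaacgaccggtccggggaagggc
Rel promoter, chr11:23770920-23771219, minus strand: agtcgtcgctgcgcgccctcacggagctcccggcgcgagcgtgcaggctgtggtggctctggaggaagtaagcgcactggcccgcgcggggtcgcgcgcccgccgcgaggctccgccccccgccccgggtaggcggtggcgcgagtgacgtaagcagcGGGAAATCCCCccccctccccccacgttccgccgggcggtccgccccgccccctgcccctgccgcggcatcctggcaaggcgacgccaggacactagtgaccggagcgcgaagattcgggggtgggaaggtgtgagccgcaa

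In Nfkb2 the matches formed 2 stretches that lay between 2 and 39 bases before the start, and in Nfkbia the match lay between 20 and 29 bases before it. Nfkb1 and Relb had no entry in the promoter table. Nfkbib and Traf1, which also rose, had 1 window each, without a match. The consensus was found in 8.46% of the 32851 windows of the table, and in at least 1 window of 12.0% of the 3371 genes tested in liver that the table held. Among the genes higher in liver NF-kB-marker cells it was found in 26 of 108 (24.1%), and among those lower in 4 of 43 (9.30%). It was found in 10 of 18 genes for NF-kB subunits, inhibitors and feedback proteins, in 3 of the 7 markers (Bcl3, Tnfrsf9 and Serpina3g) and in 3 of 14 interferon-response genes. The motif TGANTCA of AP-1, which reads the same on both strands and may overlap the other, was found in 9 of the 108 higher genes (8.33%), in 5 of the 43 lower genes (11.6%) and in 5.78% of those tested. A match is a description of these letters and not evidence of binding.

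The libraries held between 4768016 and 11086603 UMIs, and median UMIs per cell ranged from 2880 to 3592 in liver and from 1470 to 1730.5 in the other organs, so liver cells were the most deeply counted. Pairs of libraries shared between 6 and 20 cell barcodes. Xist was absent from the lymph node libraries, which held Y-linked RNA, so organ was not separate from the sex of the mice for lymph node. All main comparisons below were made inside a library, between NF-kB-marker cells and other cells that were matched 1 to 1 within 10% on their UMIs and that also lacked the 4 excluding genes.

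NF-kB-marker cells were a small share of every library and were found mostly in liver. They made up 131 of 2801 cells (4.68%, 95% exact binomial interval 3.92 to 5.53) in liver replicate 1 and 108 of 2861 (3.77%, 3.11 to 4.54) in liver replicate 2. In spleen they made up 12 of 2729 cells (0.44%) and 7 of 2655 (0.264%), and in lymph node 6 of 2638 (0.227%) and 3 of 2848 (0.105%). Both liver libraries lay above the 4 others, and the organ means were 4.23% ± 0.638 for liver, 0.352% ± 0.124 for spleen and 0.166% ± 0.0863 for lymph node (SD, n = 2). With 2 libraries against 2, an exact permutation test cannot go below p = 0.33, so no test of the organs was made. Since the rule asks for detected UMIs, each cell was also thinned to 1000 UMIs, which left out 0 and 9 cells of the liver, 144 and 169 of the spleen and 265 and 488 of the lymph node libraries as too shallow. The shares were then 0.885% ± 0.111 for liver, 0.138% ± 0.0241 for spleen and 0.0211% ± 0.0298 for lymph node (SD, n = 2), from 50, 7 and 1 cells. Lymph node replicate 2 had 0 of 2360 cells, which allows a share of up to 0.127% by the limit of 3 counts used for zeros in the text, while the 2-sided exact interval drawn in the plot of shares ends at 0.156%. The order of the organs was the same at both depths, and the intervals cover counting error only.

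**Figure D1:**
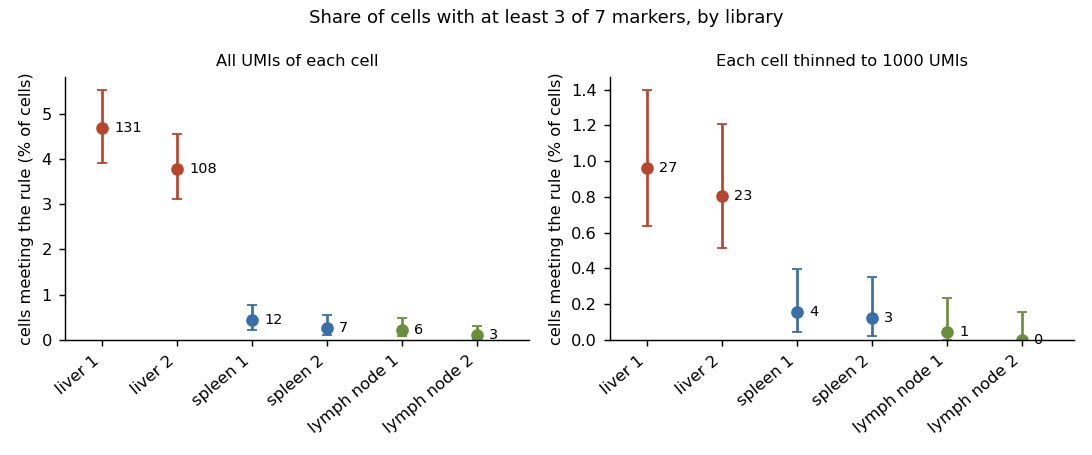
Share of NF-kB-marker cells in each library, in percent of cells, with 95% exact binomial intervals and the number of such cells beside each point, for all UMIs (left) and with each cell thinned to 1000 UMIs (right). In both panels the 2 liver libraries sit above the 4 spleen and lymph node libraries.

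Most liver NF-kB-marker cells were near the threshold of the rule. Of the 239, 160 had exactly 3 markers, 55 had 4 and 24 had 5 or more, while 476 liver cells with exactly 2 markers lay just outside. Of the 405 liver cells with at least 3 markers, 166 (41.0%) were turned away by an excluding gene, 79 of them with Ifit1, 64 with Cd74, 59 with Top2a and 19 with Rsad2. The pair seen most often in the same cell was Serpina3f with Serpina3g, in 95 of 239 cells (39.7%), followed by Bcl2l11 with Serpina3g in 90 (37.7%), and the least frequent was Bcl3 with Tnfrsf9, in 20 (8.37%). Serpina3f and Serpina3g are related serine protease inhibitor genes that lie next to each other in the mouse (GRCm38, chr12:104214544-104221129 and chr12:104236245-104241939, both on the plus strand), so reads may be split between them. With this pair counted as 1 marker, 196 of the 239 cells remained and the liver share was 3.47%.

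The 7 markers have different roles. Irf8 is a transcription factor of the interferon regulatory family, Bcl3 is an IkB-like nuclear cofactor of NF-kB, Tnfrsf9 is the costimulatory receptor 4-1BB, Icam1 is an adhesion molecule and Bcl2l11 is the pro-apoptotic protein Bim. Serpina3g was detected in the most cells, 64.9% of the liver replicate 1 and 62.0% of the liver replicate 2 cells, against 16.8% and 5.56% of the matched cells. Irf8 was detected in 68 of 131 and 54 of 108 cells, against 9.16% and 9.26% of the matched cells. Tnfrsf9 was detected in the fewest, 25.2% and 28.7% in the order given, with Bcl3 at 37.4% and 28.7%. These levels follow from the rule. All 71 liver cells with at least 3 iNKT17 genes, chosen without regard to the markers and at a median of 4081 UMIs against 4025 and 3207 in the NF-kB-marker cells, had Irf8 in 8.45%, Icam1 in 18.3% and Tnfrsf9 in 0 cells, which allows a share of up to 4.23%.

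How the markers went together was described by leaving out each in turn: cells were chosen by at least 3 of the remaining 6, and the left-out gene was then compared between chosen and matched cells. Because the 7 genes had been picked together on these cells, their going together was part of the choice, and the values are given with no test. Serpina3g had 99 UMIs in the chosen against 29 in the matched cells of liver replicate 1 (84 cells each), and 84 against 5 in replicate 2 (70 cells each), a log2 fold change of 2.41 ± 0.24 (SE). Irf8 had 74 against 13 UMIs and 59 against 17, which gave 2.11 ± 0.27. Serpina3f, Bcl2l11 and Icam1 were at 2.65 ± 0.29, 1.85 ± 0.27 and 1.16 ± 0.27, and Bcl3 and Tnfrsf9 at 1.21 ± 0.40 and 1.51 ± 0.41. The last 2 were uneven between the libraries, with Bcl3 at 28 against 6 UMIs in replicate 1 and 15 against 12 in replicate 2, and Tnfrsf9 at 34 against 7 and 13 against 9.

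Most NF-kB-marker cells of the liver held iNKT1 genes. Cells with 3 or more of 10 such genes made up 91 of 131 and 73 of 108 of them, against 105 and 82 of the matched cells. Of the NF-kB-marker cells 1 in each library had 3 or more iNKT17 genes, against 1 and 3 of the matched cells. Among all other liver cells the share was 1.16% and 1.38%. Median mitochondrial shares were 2.61% and 2.65%, against 2.75% and 2.71% in the matched cells. CD3 and other T cell receptor complex genes together gave 6450 and 6591 CPM (UMIs scaled to the same total per sum of cells), against 6701 and 7208. Defining genes of B cells, myeloid cells, hepatocytes and endothelium were at or near 0, which for B and myeloid cells follows in part from the rule, since both cell types express Cd74. Of 4 B cell genes, 3 were at 0 in each liver library and the list summed to 2.52 and 3.82 CPM. Of 15 myeloid and dendritic cell genes, 13 were at 0 in each and the list summed to 5.05 and 11.5 CPM, and of 10 hepatocyte and endothelial genes 8 and 10 were at 0, with 10.1 and 0 CPM. Of 5 genes of CD8 T, regulatory T and NK cells, 4 and 3 were at 0, and the list summed to 2.52 CPM (1 UMI) in replicate 1 and 53.5 CPM (14 UMIs) in replicate 2, against 0 in both sets of matched cells. Of the 14 UMIs 13 were of Ncr1, an NK cell receptor gene, in 4 of the 108 cells, and their part in the results was not tested. The 2% of cells of a library with the highest Scrublet doublet scores, which stayed in the main comparison, held 3 (2.29%) and 6 (5.56%) of the NF-kB-marker cells, against 1 in each set of matched cells. Without these high-scoring cells 199 genes were called in liver, close to the 192 below.

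In liver, 192 of 4329 tested genes (4.44%) differed between NF-kB-marker and matched cells at an adjusted p under 0.05 in edgeR's quasi-likelihood test with a library block. Of these, 133 were higher (3.07%) and 59 lower (1.36%). The sign was the same in both libraries for 191 of the 192, which the choice of called genes largely fixes. The fit had 1 residual degree of freedom and took the spread from all genes together, where it was near counting noise, so it reads differences against the spread of an average gene. DESeq2, which estimated the spread otherwise, called 0 genes in liver and had 24 at an unadjusted p under 0.05, against 620 in edgeR. All 192 genes kept their direction in DESeq2, which was fitted on the same sums. Where each cell counted at most 1 per gene, so that a few cells with many UMIs could not carry a call, 13 genes were called: Nfkbia, Nfkb2, Relb, Gadd45b, Iigp1, Bhlhe40, Kdm2b, Marcksl1, Pdcd1lg2, Ptpn6 and Stx11, higher, and Bcl2 and Dtx1, lower. The values below are normalised CPM of the summed cells, after edgeR's TMM scaling, and the gene lists were chosen with earlier results of these data known.

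NF-kB subunits were higher in the NF-kB-marker cells. Of the 5 subunit genes, 4 rose and none fell, with a median log2 fold change of 1.37 against 0.00 over all tested genes. Relb stood at 176 normalised CPM in the NF-kB-marker against 81.3 in the matched cells of liver replicate 1, and at 259 against 79.1 in replicate 2, a log2 fold change of 1.37 ± 0.24 (SE; edgeR adjusted p = 2.51e-06). Nfkb2, whose p100 product pairs with RelB in the non-canonical pathway, stood at 116 against 29.0 and at 136 against 35.1, 1.96 ± 0.34 (edgeR adjusted p = 9.66e-07). It was detected in 26.0% and 23.1% of the cells, against 6.11% and 6.48%. Rel, the c-Rel subunit of activated lymphocytes, stood at 85.0 against 26.1 and at 92.1 against 39.5, and Nfkb1 at 198 against 113 and at 171 against 83.5, with log2 fold changes of 1.46 ± 0.38 and 0.88 ± 0.24 (edgeR adjusted p = 0.00528 and 0.00694). Rela, the p65 subunit, stood at 87.8 against 66.8 and at 83.3 against 39.5, and did not pass (0.62 ± 0.32, edgeR adjusted p = 0.365). In all 5 subunit genes both NF-kB-marker values lay above both matched values, as they did in 18.8% of all tested genes.

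Inhibitor genes were among those higher. Of 17 inhibitor and feedback genes, 12 were tested, 5 rose and none fell, with a median log2 fold change of 0.71. Nfkbia, which encodes IkBα, stood at 1065 against 252 normalised CPM in liver replicate 1 and at 925 against 466 in replicate 2, a 2.95-fold difference (log2 1.56 ± 0.13, edgeR adjusted p = 5.17e-21). It had a UMI in 72.5% and 65.7% of NF-kB-marker cells and in 40.5% and 40.7% of matched cells, so it was also common in cells outside the rule. Nfkbid and Nfkbie, which encode the nuclear IkBNS and the cytoplasmic IkBε, rose by 1.55 ± 0.28 (edgeR adjusted p = 4.06e-06) and 1.61 ± 0.39 (0.00228), from 58.0 and 48.3 to 161 and 158 for Nfkbid and from 34.8 and 17.6 to 87.8 and 83.3 for Nfkbie. Nfkbib and the adaptor Traf1 rose less, by 1.00 ± 0.25 and 0.72 ± 0.22 (edgeR adjusted p = 0.00294 and 0.0274). Tnfaip3, the deubiquitinase A20, stood at 73.7 against 34.8 and at 87.7 against 35.1 and missed the threshold (1.17 ± 0.38, edgeR adjusted p = 0.0512). Nfkbiz, Tnip1, Cyld, Traf2, Birc2 and Birc3 did not pass either, with log2 fold changes from -0.16 for Cyld to 0.70 for Traf2.

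**Figure D2:**
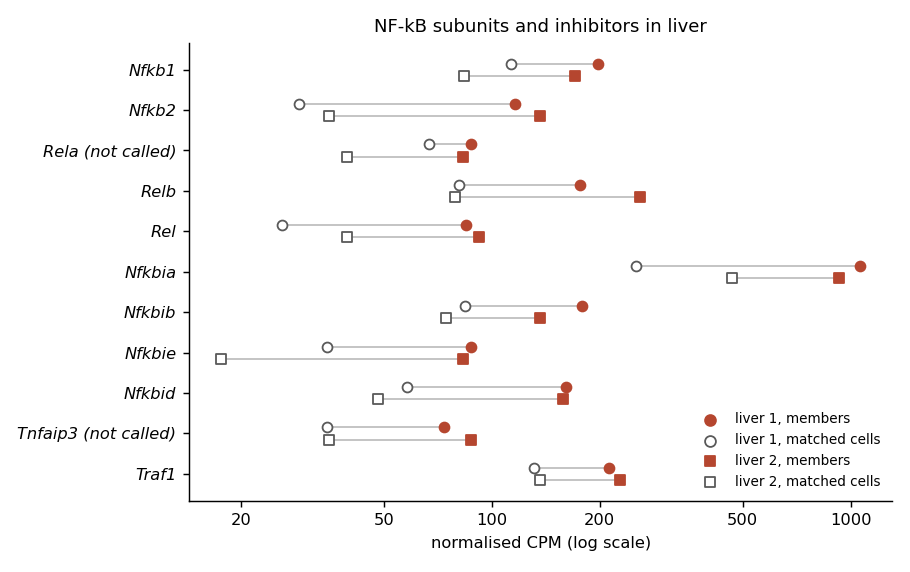
Normalised CPM on a log axis of NF-kB subunit and inhibitor genes in the summed NF-kB-marker cells (filled) and matched cells (open) of liver replicates 1 (circles) and 2 (squares). For every gene drawn both filled symbols lie to the right of the open symbol of their library, and Rela and Tnfaip3 did not pass the test.

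No kinase or adaptor gene upstream of NF-kB passed the test. Of 15 such genes 9 were tested, a number of which few would be called at the 4.44% of all genes, and the median log2 fold change was -0.27. The difference from the subunits and inhibitors was not tested. Ikbkb, the catalytic IKKβ subunit, stood at 176 against 197 and at 136 against 228 normalised CPM, and Chuk, the IKKα subunit, at 62.3 against 52.2 and at 30.7 against 70.3, so Chuk differed in sign between the libraries. Bcl10 and Prkcq, which link the T cell receptor to the kinase, had log2 fold changes of -0.14 ± 0.26 and -0.30 ± 0.22. Among 10 tested receptors, ligands and costimulatory genes of the TNF and CD28 families 2 rose and none fell, at a median of 0.04. These were the death receptor Fas, at 65.2 against 29.0 and 167 against 70.3 (1.20 ± 0.32, edgeR adjusted p = 0.00694), and Icos, at 442 against 296 and 421 against 330 (0.48 ± 0.16, edgeR adjusted p = 0.046). Tnfrsf18, Cd27, Cd28 and Cd40lg did not pass.

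Among known NF-kB target genes, 8 of the 12 tested rose and none fell, and the median log2 fold change was 0.70. Gadd45b, a stress-response regulator of MAP kinase signalling that limits cell death (GRCm38, chr10:80930073-80932204, plus strand), rose the most of all genes outside the rule that passed, from 11.6 to 170 normalised CPM in liver replicate 1 and from 22.0 to 123 in replicate 2 (9.26-fold, log2 3.21 ± 0.38, edgeR adjusted p = 3.92e-14). It was detected in 24.4% and 18.5% of the NF-kB-marker cells, against 2.29% and 1.85%. Cd82, a tetraspanin, stood at 969 against 505 and at 1144 against 716, and the transcription factor Irf1 at 382 against 215 and 377 against 237 (log2 0.81 ± 0.11 and 0.76 ± 0.17, edgeR adjusted p = 1.86e-10 and 0.000658). The kinase Pim1 and the lymphotoxin gene Ltb rose by 0.64 ± 0.16 and 0.43 ± 0.07 (edgeR adjusted p = 0.00226 and 1.82e-06). Ltb was high in all sets, at 2629 and 2552 normalised CPM in NF-kB-marker cells and 1933 and 1929 in matched cells. Cd44, Cflar, Bcl2l1 and Sod2 did not pass.

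Genes of the Bcl2 family, which decide cell survival, moved in both directions. Bcl2a1b and Bcl2a1d, anti-apoptotic A1 genes and NF-kB targets, rose from 366 and 409 to 776 and 864 normalised CPM and from 299 and 272 to 527 and 649 (log2 1.08 ± 0.13 and 1.00 ± 0.15, edgeR adjusted p = 9.05e-14 and 5.84e-09). They are near-identical copies, so the split of reads between them is uncertain. Bcl2 itself, the anti-apoptotic gene that names the family, fell, from 804 and 663 to 433 and 381, a 1.81-fold difference (log2 -0.85 ± 0.13, edgeR adjusted p = 1.57e-08). It was detected in 54.2% and 38.0% of NF-kB-marker cells, against 83.2% and 63.9% of matched cells. In cells with at least 2 markers the fall in liver was smaller (-0.35 ± 0.08, edgeR adjusted p = 0.00217), and Bcl2 stood at 0.45 ± 0.44 in spleen and 0.39 ± 0.82 in lymph node, where it did not pass (edgeR adjusted p = 0.825 and 0.96). Bcl2l11, the pro-apoptotic gene of the rule, stood at 416 and 425 in liver NF-kB-marker cells, as the rule requires. Their matched cells had 84.2 and 65.9. Mcl1, Bax, Bak1, Bad and Bcl2l1 did not pass, and the list of 8 tested genes had 2 higher, 1 lower and a median of 0.18.

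Effector cytokine and chemokine RNA was also higher. Of 5 tested genes 4 rose, at a median log2 fold change of 1.02. Ifng stood at 207 against 84.2 and at 434 against 242 normalised CPM (1.02 ± 0.20, edgeR adjusted p = 3.85e-05), and 29.8% and 37.0% of the cells had a UMI, against 16.8% and 24.1%. The chemokine gene Xcl1 stood at 669 against 316 and at 1035 against 457 (1.13 ± 0.13, edgeR adjusted p = 1.16e-14). For Xcl1 the share of cells with a UMI was 50.4% and 61.1% against 49.6% and 48.1%, and the cell with most UMIs held 10.4% of those of the liver NF-kB-marker cells. For Csf2 that cell held 22.4%, at 85.0 against 29.0 and 83.3 against 35.1 (1.40 ± 0.39, edgeR adjusted p = 0.00978). Ccl5 rose by 0.19 ± 0.06 (edgeR adjusted p = 0.0432), mainly in replicate 1, with 6025 against 4812 there and 4819 against 4745 in replicate 2. Il4 did not pass (0.57 ± 0.21, edgeR adjusted p = 0.111). Of 6 tested cytotoxic genes none was called, a count that the 4.44% of all genes would also give, and Gzmb was detected in 21 of 131 and 22 of 108 cells against 21 and 28 of the matched cells.

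Of 11 tested early genes of T cell receptor signalling, Dusp2 and Jund rose and none fell, at a median log2 fold change of 0.27. The list of 20 genes summed to 2731 and 2799 CPM against 2065 and 2216. Dusp2, a nuclear phosphatase of MAP kinases, stood at 745 against 430 and at 417 against 215 normalised CPM (0.84 ± 0.14, edgeR adjusted p = 8.76e-07). Jund, an AP-1 subunit, stood at 728 against 563 and at 1140 against 751 (0.48 ± 0.11, edgeR adjusted p = 0.00116). Junb, Cd69, Myc and Il2ra did not pass, with log2 fold changes of 0.27 to 0.57, and Jun did not pass and differed in sign between the libraries (75.5 to 82.2 and 149 to 39.5). Heat shock genes, which also respond to the preparation of cells, had 3 of 5 tested genes higher (Hspa8, Hsp90aa1 and Hspe1, at 0.37 ± 0.06, 0.49 ± 0.11 and 0.43 ± 0.11, edgeR adjusted p = 1.8e-06, 0.00116 and 0.00549), and the list summed to 5251 and 5774 CPM against 3940 and 4750. The part of cell preparation in the results was not tested.

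Interferon-response genes rose although cells with Ifit1 or Rsad2 had been taken out of both sides. Of 18 genes 14 were tested, 9 rose and none fell, with a median log2 fold change of 0.86. Iigp1, an interferon-γ-induced GTPase, stood at 119 against 14.5 and at 193 against 26.4 normalised CPM (7.51-fold, log2 2.91 ± 0.36, edgeR adjusted p = 1.29e-12). The related GTPase genes Igtp, Gbp4, Irgm1 and Gbp2 rose by 1.05 ± 0.15, 1.23 ± 0.19, 0.89 ± 0.22 and 0.90 ± 0.22 (edgeR adjusted p = 1.15e-09, 1.68e-08, 0.00226 and 0.00294). Socs1, a feedback inhibitor of cytokine signalling, stood at 244 against 119 and 215 against 119 (0.96 ± 0.22, edgeR adjusted p = 0.000886). Isg15 and Isg20 rose as well, while Irf7, Irf9, Bst2, Stat2 and Gbp7 did not pass. The direction rested on how comparison cells were chosen for Isg15, which was at -0.04 when cells with the excluding genes were allowed among them, and on the number of markers for Gbp2, which was at -0.19 in cells with at least 4.

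Some genes of the iNKT1 programme were lower, among them those of 2 NK cell receptors. Of 10 tested iNKT1 genes 3 fell and none rose, and the median log2 fold change was -0.40. Klrc1, which encodes the receptor NKG2A, stood at 212 against 308 in liver replicate 1 and 184 against 562 in replicate 2 (-1.02 ± 0.17, edgeR adjusted p = 6.56e-07). Klrk1, the receptor NKG2D, stood at 357 against 563 and 408 against 624, and the chemokine receptor Cxcr3 at 436 against 612 and 417 against 650 (-0.64 ± 0.14 and -0.55 ± 0.13, edgeR adjusted p = 0.000386 and 0.00198). In these 3 genes both values of NF-kB-marker cells lay below both matched values, as they did in 19.9% of all tested genes. Tbx21, the gene for T-bet, did not pass and differed in sign (136 against 163 and 259 against 167), and Il2rb, Klrb1c and Klrd1 did not pass. Cells with 3 or more of the 10 genes made up 69.5% and 67.6% of NF-kB-marker cells, against 80.2% and 75.9% of matched cells. In liver cells with at least 2 markers, described further below, Klrc1 was still lower (-0.53 ± 0.10, edgeR adjusted p = 7.55e-06), while Klrk1 and Cxcr3 were at -0.21 each and did not pass (edgeR adjusted p = 0.14 for both). In those cells the 9 list genes tested had a median of -0.15 for liver, while the medians were 0.36 for spleen and 0.51 for lymph node, with no gene called in either. The spleen NF-kB-marker cells had 2176 and 3162 CPM of the summed list against 1486 and 937 in their matched cells, from 48 and 40 UMIs against 32 and 11. Of 5 iNKT2 genes Icos rose. For iNKT17 and emigrant genes, of which 2 and 3 could be tested and none was called, the number was too small to be read against the 4.44% of all genes. In the T cell receptor complex Cd5, a brake on T cell receptor signalling, rose and Cd3d fell slightly (0.87 ± 0.27 and -0.24 ± 0.07, edgeR adjusted p = 0.0376 and 0.03). Icos, Cd5 and Cd3d did not pass in cells with at least 2 markers, at 0.14, 0.43 and -0.14 (edgeR adjusted p = 0.524, 0.178 and 0.193).

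**Figure D3:**
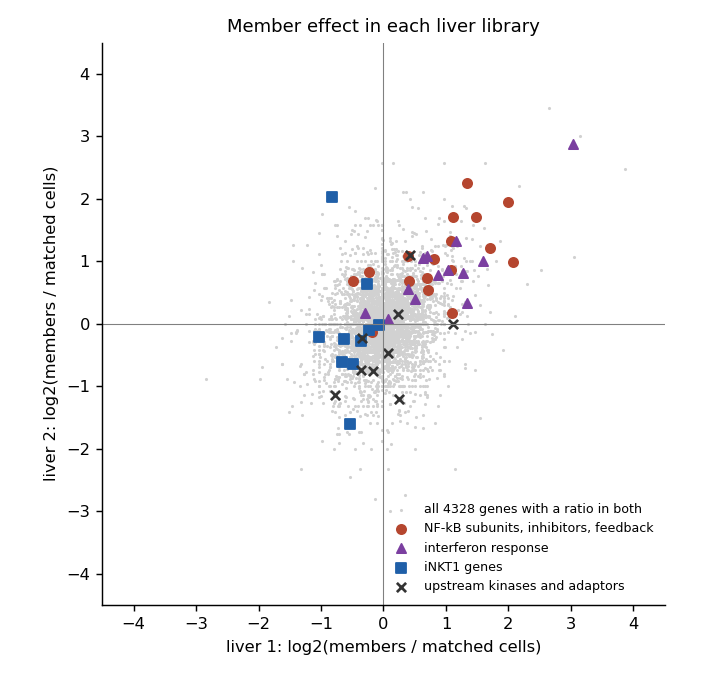
Log2 ratio of NF-kB-marker to matched cells in liver replicate 1 (x axis) and liver replicate 2 (y axis) for the 4328 tested genes with a ratio in both (grey), with 4 gene lists in colour. NF-kB and interferon genes lie mostly to the upper right, iNKT1 genes mostly in the lower left, and the upstream kinases and adaptors on both sides of the origin, at a median of -0.27 in the fit.

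Outside the lists, the genes with the largest changes were of mixed function. Besides Gadd45b, Iigp1, Nfkb2, Nfkbie and Nfkbia, the 12 largest rises held Stx11, a syntaxin of granule release (102 against 11.6 and 105 against 13.2 normalised CPM), Marcksl1 (127 against 20.3 and 96.5 against 8.79) and the histone demethylase Kdm2b (235 against 52.2 and 162 against 35.1). Their log2 fold changes were 3.01 ± 0.46, 2.83 ± 0.41 and 2.17 ± 0.27 (edgeR adjusted p = 1.2e-08, 1.63e-09 and 1.33e-12). The others were the interferon-induced GTPase Gbp3, the transcription factor Bhlhe40, the ligand Pdcd1lg2 (PD-L2) and Mmd, at 1.57 to 1.94. Bhlhe40 and Pdcd1lg2 were uneven, with 17.4 to 144 and 20.3 to 116 in replicate 1 and 83.5 to 175 and 70.3 to 127 in replicate 2. Of the 10 largest falls, Dtx1, a Notch-linked ubiquitin ligase, was the best supported, at 70.8 against 203 and 74.5 against 198 (-1.47 ± 0.25, edgeR adjusted p = 5.41e-07). The others were Mirt1, 2810417H13Rik, Fam46a, Prkx, the channel gene Aqp9, Efcab14, Ppp1r15a, Gmip and Fam65b, at log2 fold changes of -1.80 to -1.18.

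For the genes and lists given here, liver cells just outside the rule lay between the NF-kB-marker cells and those without markers. In cells without the excluding genes, Nfkbia stood at 272 CPM (before TMM scaling, both liver libraries pooled) in the 2230 cells with none of the 7 markers, at 369 with 1, 569 with 2, 798 with 3, 1026 with 4 and 1181 with 5 or more. Relb stood at 42.1 CPM with none and 242 with 5 or more, and Bcl2 stood at 830 with none, 782 with 1, 680 with 2, 367 with 3, 455 with 4 and 174 with 5 or more. The 24 cells of the last step held 13 UMIs of Bcl2. Median UMIs per cell moved with these steps, from 2865.5 with none to 3686.5 with 5 or more. The summed interferon list went from 1750 and 1926 CPM with none to 4082 and 4875 with 5 or more in the 2 libraries, and the summed iNKT1 list from 3780 and 3971 to 2436 and 2367. These are descriptions along the count that the rule used.

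**Figure D4:**
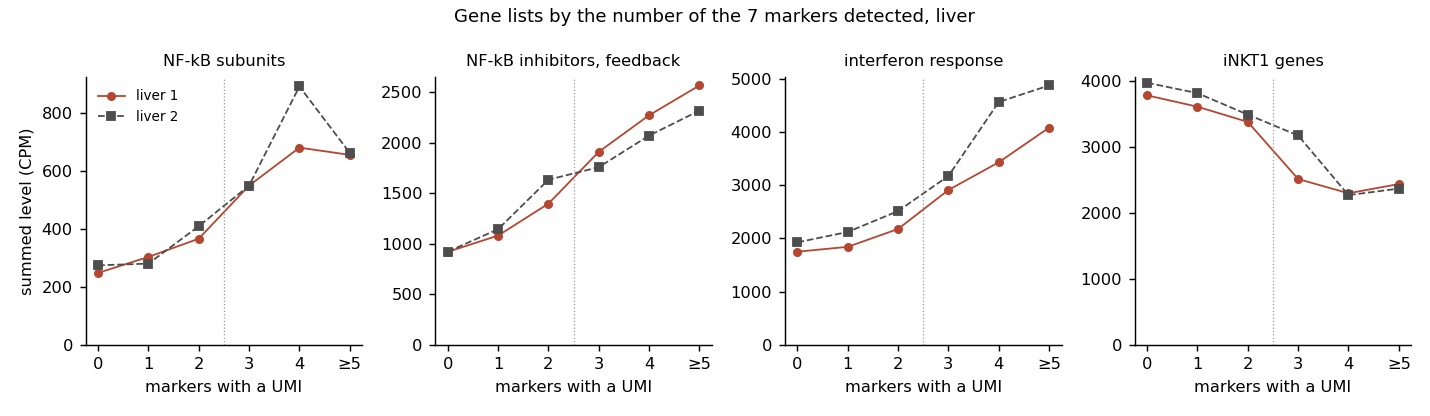
Summed CPM of 4 gene lists in liver cells without the excluding genes, by the number of the 7 markers with a UMI (the dotted line is the threshold of the rule), for liver replicates 1 (solid) and 2 (dashed). Inhibitor and interferon genes were highest in both libraries in cells with 5 or more markers, while NF-kB subunits were highest, and iNKT1 genes lowest, in cells with 4.

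Spleen and lymph node had too few NF-kB-marker cells for a comparison with replicates. Only spleen replicate 1, with 12 cells, reached the minimum of 10 matched pairs, and its spread was assumed to be that of the liver libraries. There 8 of 4329 genes (0.185%) were called by edgeR, while DESeq2 called 1. The proteoglycan gene Srgn stood at 3265 against 544 normalised CPM, the receptor Cd160 at 1149 against 136, the chaperone Hspa8 at 3494 against 1043 and the granule gene Nkg7 at 3127 against 1315 (log2 2.58 ± 0.37, 3.07 ± 0.69, 1.74 ± 0.29 and 1.25 ± 0.29, edgeR adjusted p = 2.65e-08, 0.00579, 4.46e-05 and 0.0274). Jund, Ccl5 and AW112010, the last named after its values were seen, rose as well, and the histone gene H2afz fell. No NF-kB subunit or inhibitor was among these 8 genes, a count near that of 0.185% of all genes. Relb stood at 414 against 136 normalised CPM, Nfkbia at 1058 against 680 and Nfkb1 at 230 against 136, and the 5 subunit genes summed to 18 UMIs (816 CPM) against 8 (371 CPM). The inhibitor and feedback list differed less there, at 37 UMIs (1677 CPM) against 33 (1532 CPM). In spleen replicate 2, with 7 cells, that list had 30 UMIs (2371 CPM) against 8 (682 CPM). The subunits there had 5 UMIs (395 CPM) against 3 (256 CPM). In lymph node the subunits had 2 UMIs against 7 in replicate 1 and 2 against 0 in replicate 2, too few to compare. Of the 12 cells of spleen replicate 1, 6 had 3 or more iNKT1 genes, against 3 of the 12 matched cells. A second definition of iNKT1 cells took those with a UMI of Tbx21, Il2rb, Klrb1c or Klrd1 and none of a few iNKT17 genes. With both sides limited to such cells, and the comparison cells drawn anew (10 against 10), 6 genes were called. Of the 9 lymph node cells 0 had 3 or more iNKT1 genes, while 2 of 6 and 2 of 3 met the second definition.

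To bring in all 6 libraries, an alternative chosen after seeing the data took cells with at least 2 markers and no excluding gene (405 and 299 matched in liver, 107 and 72 in spleen, 47 and 39 in lymph node). The test called 145 of 2188 genes for liver (6.63%), 29 for spleen (1.33%) and 3 for lymph node (0.137%). DESeq2 called 2, 7 and 1. Of the 192 genes called in liver NF-kB-marker cells, 146 were tested here and 96 of these were called. Nfkbia rose in liver, from 347 and 370 to 811 and 927 normalised CPM (log2 1.27 ± 0.09, edgeR adjusted p = 1.11e-28), and in spleen, from 674 and 420 to 890 and 1067 (0.74 ± 0.18, edgeR adjusted p = 0.00826). In lymph node it stood at 1411 and 1156 in matched cells and 1658 and 1471 in the chosen cells (0.28 ± 0.19, edgeR adjusted p = 0.827). The values of matched lymph node cells lay above those of liver cells with markers, a comparison between organs that was not tested. The liver difference was larger than that in lymph node by 0.99 ± 0.22 (edgeR adjusted p of the difference 0.017), 1 of 3 genes so called, and was not shown to differ from that in spleen (0.53 ± 0.21, edgeR adjusted p = 0.515). Relb rose in liver (1.19 ± 0.18, edgeR adjusted p = 3.2e-08) and did not pass in spleen or lymph node, where its values were also higher in the chosen cells of all 4 libraries. The 3 calls between liver and lymph node fell to 0 with DESeq2, with no replicate block and without liver replicate 2 or any 1 spleen or lymph node library, and to 1 without liver replicate 1.

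In the same cells Xcl1 rose in all 3 organs, from 372 and 443 to 606 and 848 normalised CPM in liver, 377 and 407 to 850 and 820 in spleen and 193 and 283 to 819 and 533 in lymph node (log2 0.81 ± 0.09, 1.11 ± 0.20 and 1.58 ± 0.35, edgeR adjusted p = 3.68e-14, 2.95e-05 and 0.00777). Srgn rose in all 3 as well. The 3 lymph node calls fell to 0 with no replicate block and without either spleen library. With no replicate block the liver and spleen calls fell to 26 and 7. Ccl5 rose in spleen from 6215 and 5505 to 9911 and 9081, and less in liver, from 6062 and 5119 to 7145 and 5575, and the difference of the 2 effects was -0.51 ± 0.09 (edgeR adjusted p = 0.000259). The 3 genes called between liver and spleen, Ccl5 among them, fell to 0 with DESeq2, with no replicate block and without liver replicate 1, liver replicate 2 or spleen replicate 1, and to 1 without spleen replicate 2. In spleen the calcium-binding protein gene S100a6 (1012 and 1524 to 509 and 572), the galectin gene Lgals1, the transcriptional regulator genes Lmo4 and Klf2 and the chemokine receptor gene Ccr2 fell, by log2 -1.18 ± 0.18, -0.92 ± 0.14, -1.09 ± 0.21, -1.08 ± 0.28 and -0.88 ± 0.23 (edgeR adjusted p = 7.27e-07, 4.38e-07, 0.000141, 0.016 and 0.016). All 5 also fell in liver, but they were not the 5 largest of the 12 falls in spleen. Of the others, Lgals3, Arl4c and Ramp1 fell in liver as well. Atxn10, Emp3, S100a11 and mt-Co3 did not pass there (log2 -0.11, -0.28, -0.03 and -0.13, edgeR adjusted p = 0.84, 0.111, 0.911 and 0.197). Without spleen replicate 1 only 1 gene was called in spleen, and without spleen replicate 2 only 5, so most spleen calls needed both libraries.

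**Figure D5:**
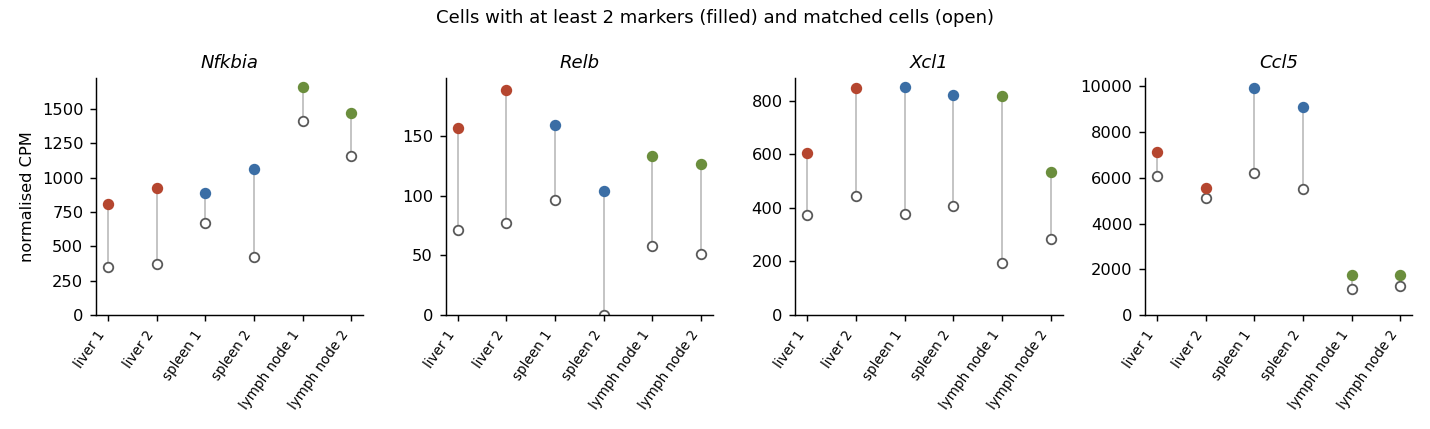
Normalised CPM of Nfkbia, Relb, Xcl1 and Ccl5 in the summed cells with at least 2 markers (filled) and their matched cells (open) of each library. For all 4 genes the filled symbol lies above the open one in every library, and Nfkbia was highest in the lymph node libraries.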

How the data were processed

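The authors aligned reads to mm10 with Cell Ranger 3.1.0, and the deposited matrices hold raw UMI counts per gene and cell barcode. The other deposited files list names of genes and of barcodes. The members and the gene lists were chosen with earlier results of these data known. Barcodes with 300 to 4000 genes and at most 15% mitochondrial UMIs were kept (55 of 16587 left out), no doublets were removed, and 113 ribosomal, rRNA and haemoglobin genes were dropped. Counts of members and of matched cells were summed per library and fitted in edgeR 4.0.16 (filterByExpr, TMM, quasi-likelihood test) with the library as a block and an effect per organ. Libraries with under 10 matched pairs were left out. p-values were Benjamini-Hochberg adjusted over all genes but the 11 of the rule. On simulated counts the liver comparison recovered 84% of 2-fold changes, with 6 false calls among 4336 genes. The changes were set only in genes with higher counts. All genes were drawn with the same spread, that of the fit, so these numbers do not give error rates on the real counts. Genes named were those of the lists, with the 12 largest rises and 10 largest falls in liver. These rises and falls passed with the same sign in both libraries at a mean of 20 CPM or more. All 8 genes called in spleen replicate 1 were named. The 5 falls named in spleen cells with at least 2 markers were not the 5 largest. Locations came from GENCODE vM21 (GRCm38). Alternatives were DESeq2 1.42.0, other scaling, filters, matching, depth and thresholds, and left-out libraries. Intervals cover counting error only. A few genes of the lists are not reported here by name.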

Additional observations from a re-analysis of the deposited data

Results flagged for a closer look

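The effect of membership differed between liver and spleen replicate 1 for 5 genes in the edgeR interaction test, with the spread of a spleen library assumed to be that of liver. Srgn rose more in spleen (liver minus spleen, log2 -1.97 ± 0.39, edgeR adjusted p = 0.0032). Nkg7, Hspa8 and Ccl5 differed in the same direction (-1.35, -1.38 and -0.87), each at an edgeR adjusted p of 0.0266. Gata3, the transcription factor of iNKT2 cells, stood at 303 and 241 normalised CPM in liver members against 206 and 180 in matched cells, and at 0 against 453 in spleen replicate 1 (edgeR adjusted p = 0.0457), so no fold is given. DESeq2 called none of the 5, and 1 gene was called with no replicate block. The spleen sets differed in iNKT1 genes, with 6 of 12 members and 3 of 12 matched cells holding 3 or more, and with both sides limited to iNKT1 cells by the second definition of the report, and comparison cells drawn anew, 1 gene was called.

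In the cells with at least 2 markers, the liver effect was smaller than that of spleen for Ccl5 (edgeR adjusted p = 0.000259) and Nkg7 (-0.47 ± 0.12, edgeR adjusted p = 0.0476), and Lgals1 fell less in liver than in spleen (0.65 ± 0.16, edgeR adjusted p = 0.0476). Liver and lymph node differed for Nfkbia (edgeR adjusted p = 0.017), for Gata3, at 280 and 259 in the chosen against 220 and 215 in the matched cells of liver and at 133 and 127 against 444 and 334 in lymph node (edgeR adjusted p = 0.0278), and for Arhgef6, whose lymph node values went from 232 and 206 to 0 and 25.4 (edgeR adjusted p = 0.0278). With DESeq2 and with no replicate block 0 genes were called in either of these comparisons of organs, and leaving out 1 library left 0 to 3 calls between liver and spleen and 0 to 1 between liver and lymph node.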

How the results depend on the processing

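The 192 liver calls became 101 with no replicate block (the pairing of the 2 sums of a library), 0 with DESeq2, 487 unmatched, 13 with cells counted once per gene, 7 of 240 genes after thinning to 1000 UMIs and 102 with at least 4 markers. All 192 kept their direction with DESeq2 and with no block, which fit the same sums. With cells counted once per gene 180 of the 190 fitted genes kept it. After thinning to 1000 UMIs 38 of the 42 fitted genes did. Leaving out spleen replicate 1 gave 176, 169 of them shared. Scaling by RLE gave 191, of which 124 were higher. With cells that hold excluding genes among the comparison cells there were 218, 132 shared. Leaving out a liver library leaves no residual degrees of freedom, so only values per library are given. The spleen count of 8 was 1 with DESeq2, 42 unmatched, 14 with excluding genes allowed in the comparison cells and 0 with cells counted once per gene. The 5 liver minus spleen calls were 1 with no filter, 1 with no replicate block, 0 with DESeq2, 1 with ribosomal genes kept, 20 unmatched, 2 matched on genes, 0 with cells counted once, 3 with the Serpina3 pair merged and 1 in iNKT1 cells of the second definition. The lymph node comparisons with 3 markers were not run, since no library had 10 pairs.

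The organ shares were 0.885%, 0.138% and 0.0211% after thinning to 1000 UMIs and 1.55%, 0.381% and 0.126% after thinning to 1500. The gap between liver and spleen was thus narrower in the thinned cells. Thinning to 1500 left out 103 and 286 cells of the liver libraries as too shallow. It left out 885 and 1200 of the spleen and 957 and 1476 of the lymph node libraries, so those shares are of deeper cells only. They were 1.40%, 0.111% and 0.019% with at least 4 markers and 12.6%, 3.32% and 1.58% with at least 2. The liver share was 3.47% with the Serpina3 pair merged. Leaving out a library gave 3.77% to 4.68% in liver, 0.264% to 0.44% in spleen and 0.105% to 0.227% in lymph node. With DESeq2 the left-out markers Irf8, Icam1, Bcl2l11, Serpina3f and Serpina3g were at 2.13, 1.10, 1.81, 2.58 and 2.82, and Icam1 matched on genes at 0.82. Bcl3 was at 1.75 unmatched, and Tnfrsf9 at 1.52 with no filter, 1.5 with no replicate block, 2.02 unmatched and 1.91 matched on genes. Without 1 library the left-out marker values ranged from 1.79 to 2.47 (Irf8), 0.31 to 2.18 (Bcl3), 0.52 to 2.23 (Tnfrsf9), 0.72 to 1.47 (Icam1), 1.44 to 2.22 (Bcl2l11), 2.31 to 2.90 (Serpina3f) and 1.75 to 4.06 (Serpina3g). Of 60 named genes so compared, 59 of them called, 2 changed sign under a setting: Isg15 (-0.04 with excluding genes allowed) and Gbp2 (-0.19 with at least 4 markers). The differences in sign of Chuk, Jun and Tbx21, none of them called, between the liver libraries are given above. Hspa8, at 0.00 with cells counted once, was in 98.1% to 100% of cells, so that setting can show no direction for it. In cells with at least 2 markers, calls ranged from 26 to 157 in liver, 1 to 32 in spleen and 0 to 9 in lymph node without 1 library. The causes of these changes were not tested.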

Other observations

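The genes below lie outside the lists, were picked from the called genes after their values were seen, and say nothing of their pathways as a whole. Gnl3, Rrp1b, Nop16, Nolc1, Rrs1 and Nop58, which encode nucleolar proteins of ribosome production, rose by log2 1.38, 1.39, 1.24, 1.18, 1.08 and 1.00, and Ncl by 0.66 (edgeR adjusted p = 3.29e-08 for Ncl and 0.0138 for Nop16, the others between these). The polyamine synthesis genes Odc1, Srm and Sms rose by 1.19, 1.16 and 0.89 (edgeR adjusted p = 0.000391, 0.000353 and 0.000786), and the translation factor gene Eif5a by 0.56 (6.69e-08). The antigen presentation genes Tap1, Psme2, H2-K1 and B2m rose by 0.72, 0.64, 0.28 and 0.20 (edgeR adjusted p = 0.00656, 2.64e-09, 0.000902 and 0.00524).

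The transcription factor genes Batf, Ikzf2, Maf and Stat3 rose (log2 1.33, 1.12, 1.04 and 0.88, edgeR adjusted p = 1.19e-08, 4.01e-06, 1.8e-06 and 0.00907). Among the genes that fell were the cytokine receptor and feedback genes Ifngr1 at -0.86, Il18r1 at -1.07 and Socs2 at -1.08 (edgeR adjusted p = 5.84e-07, 0.00257 and 1.52e-05), and the cell movement genes Ccr2 at -0.78, S1pr4 at -0.76, Itgb7 at -0.62 and Selplg at -0.48 (edgeR adjusted p = 2.48e-06, 0.0221, 0.00827 and 0.00114). None of these groups was tested as a group, and DESeq2 called none of these genes.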
